A study of Homo sapiens with 6 samples.

Results

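PC9 persisters, the cells that survived 9 days of 1.2 µM osimertinib given at once, were set against PC9 cells that had been adapted stepwise to the same dose. The members were taken by the population tag at the end of each cell name, and every tagged cell was used. There were 823 persisters and 1072 cells adapted to 1.2 µM, together 1895 of the 11258 PC9 cells and of the 19763 cells in the series. The study exposed 2 cancer cell lines to rising doses of a kinase inhibitor and read single-cell transcriptomes along the escalation. PC9 is a lung adenocarcinoma line with an activating EGFR deletion, and osimertinib is an inhibitor of the mutant EGFR kinase. The PC9 populations were the persisters, cells adapted to 8, 16, 32, 75, 150, 300 and 600 nM and 1.2 µM, and untreated cells. They were tagged with cell multiplexing oligonucleotides, pooled in equal amounts and loaded together for droplet sequencing of transcript 3′ ends. Each population was 1 tagged sample, so no test between conditions was possible, no p-value is given, and all intervals cover counting error only.

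Drug-tolerant persisters are the small fraction of a sensitive culture that outlives a lethal dose of a targeted drug, as a rule with little or no division, and that can return to drug sensitivity once the drug is gone. Stepwise adaptation lets cells go on dividing while the dose is raised. EGFR signals through the MAPK and PI3K pathways to drive D cyclins and entry into S phase, and loss of that signal in EGFR-mutant lung cells is known to induce the proapoptotic protein BIM and to release inflammatory and growth factor feedback.

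The persisters held 4908228 unique molecular identifiers (UMIs) with a median of 5776 per cell, and the 1.2 µM adapted cells 7398722 with a median of 6738.5. The median share of mitochondrial UMIs was 8.55% in persisters and 8.33% in adapted cells, but 26.9% of persisters and 15.9% of adapted cells held 10% or more. No cell barcode was shared between the populations. The epithelial label held in both: the 7 of 10 epithelial and lung markers in the table summed to 10710 CPM (UMIs of a gene scaled to a total of 1000000) in persisters and 9130 CPM in adapted cells. These were KRT7, KRT8, KRT18, KRT19, EPCAM, CDH1 and CLDN4. SFTPB, NKX2-1 and NAPSA were not in the table, so the sum does not cover them. Markers of other cells were low in both, at 22.6 and 14.2 CPM for 3 immune genes, 12.2 and 5.81 CPM for 4 endothelial genes, 10.6 and 12.03 CPM for 3 fibroblast genes and 90.1 and 57.0 CPM for 4 melanocyte genes, in persisters and in adapted cells in that order. MITF, a transcription factor that is not confined to melanocytes, made up most of the last sum with 83.5 CPM in persisters and 52.4 CPM in adapted cells. None of the 4 erythroid genes was in the table. PTPRC had 3 UMIs in each population, and CD14 had 13 in persisters and 0 in adapted cells; the part of these markers and of the mitochondrial share in the differences was not tested, apart from leaving out cells at 10% or more mitochondrial UMIs, which gave 396 genes higher and 421 lower.

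At the same dose of drug the populations differed in members of inflammatory, proliferative and lipid gene lists. Most measured NF-kB targets were higher in persisters by 2-fold or more, and most S phase and mitotic genes were lower. A smaller share of complement genes was higher, and a smaller share of sterol and fatty acid synthesis genes was lower. LCN2 and C3 were among the genes with the highest ratios and KISS1 had the lowest. Ratios are given as log2((CPM of persisters + 1)/(CPM of adapted cells + 1)), which understates the ratio of low genes, and folds are ratios of CPM with a 95% exact binomial counting interval. A gene counted as measured when the population with more of it reached 10 CPM and 20 UMIs. Of 9544 measured genes 385 (4.03%) were higher in persisters by 2-fold or more and 407 (4.26%) were lower, 8.3% in all. The median log2 ratio of all measured genes was -0.06. On the log2 scale the last gene inside the higher threshold was CYP2J2 at 1.00 and the last inside the lower one BRCA2 at -1.001, and the nearest genes outside were CHP1 at 0.997 and PRKCA at -0.999.

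**Figure D1:**
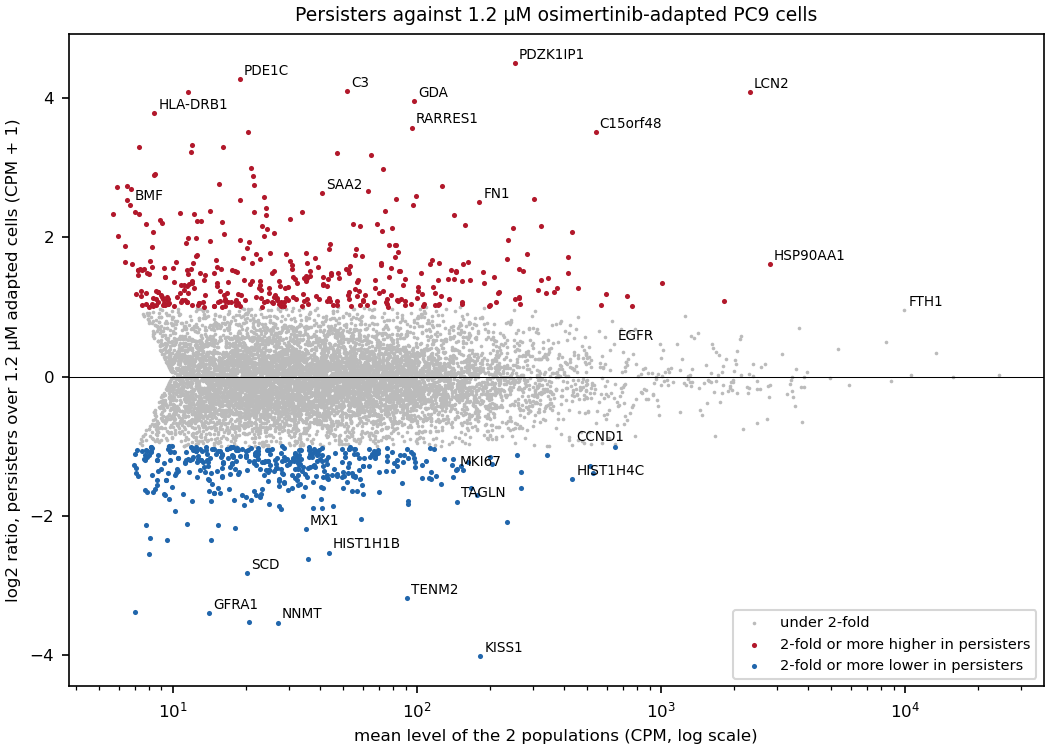
Each point is a measured gene, with its mean level in the 2 populations on a log axis in CPM and its log2 ratio of persisters over 1.2 µM adapted cells on the other axis; red genes were 2-fold or more higher and blue genes 2-fold or more lower in persisters. PDZK1IP1 at 4.50 and KISS1 at -4.01 mark the ends of the range, and LCN2 and HSP90AA1 stand apart as abundant genes.

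The gene with the highest ratio was PDZK1IP1, a small membrane protein that binds PDZ-domain proteins (chromosome 1, 47183593 to 47191044, minus strand, GRCh38). It had 485 CPM in persisters (95% Poisson interval 466 to 505) and 20.5 CPM in adapted cells (17.4 to 24.1), 23.6-fold (20.03 to 27.99). No adapted population came near the persisters: the gene lay at 17.2 CPM in untreated cells and was highest among the others at 32 nM, with 32.8 CPM. LCN2, lipocalin 2, which binds iron-loaded siderophores and is secreted in inflammation (chromosome 9, 128149071 to 128153455, plus strand), had 21492 UMIs in persisters and 1908 in adapted cells. Its level was 4379 CPM in persisters and 258 CPM in adapted cells, 17.0-fold (16.2 to 17.8). Along the escalation LCN2 was lower at higher doses, with 878 CPM in untreated cells and then 735, 754, 472 and 322 CPM under 8, 16, 32 and 75 nM. Persisters were therefore the highest of the 10 populations, and the 1.2 µM adapted cells the lowest but one.

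Several of the other leading genes were also highest in persisters. PDE1C, a calmodulin-dependent cyclic nucleotide phosphodiesterase, had 36.7 CPM in persisters and 0.946 CPM in adapted cells, from 7 UMIs in adapted cells, 38.8-fold (18.4 to 97.8). GDA, guanine deaminase, had 184 CPM in persisters and 10.9 CPM in adapted cells, with 87.1 CPM in untreated cells. C15orf48, a mitochondrial protein of the cytochrome oxidase that is induced in inflammation, had 994 CPM in persisters and 86.5 CPM in adapted cells, 11.5-fold (10.6 to 12.5), with 93.5 CPM in untreated cells. For C15orf48 the adapted cells thus lay near the untreated level and the persisters far above it, whereas for GDA the adapted cells lay far below untreated cells and the persisters above. RARRES1, a retinoid-induced membrane protein, had 177 CPM in persisters and 13.9 CPM in adapted cells. PLAT, tissue plasminogen activator, had 38.3 CPM in persisters and 2.43 CPM in adapted cells. VTCN1, the immune checkpoint ligand B7-H4, had 27.7 CPM in persisters and 3.24 CPM in adapted cells, against 0.853 CPM in untreated cells. The remaining genes among the 15 highest were BCAS1, the adaptor FYB1, the adhesion molecule NECTIN3, THSD7A and the proprotein convertase PCSK5, with log2 ratios from 2.88 to 3.29, and C3 and TNFAIP2, given with their groups.

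**Figure D2:**
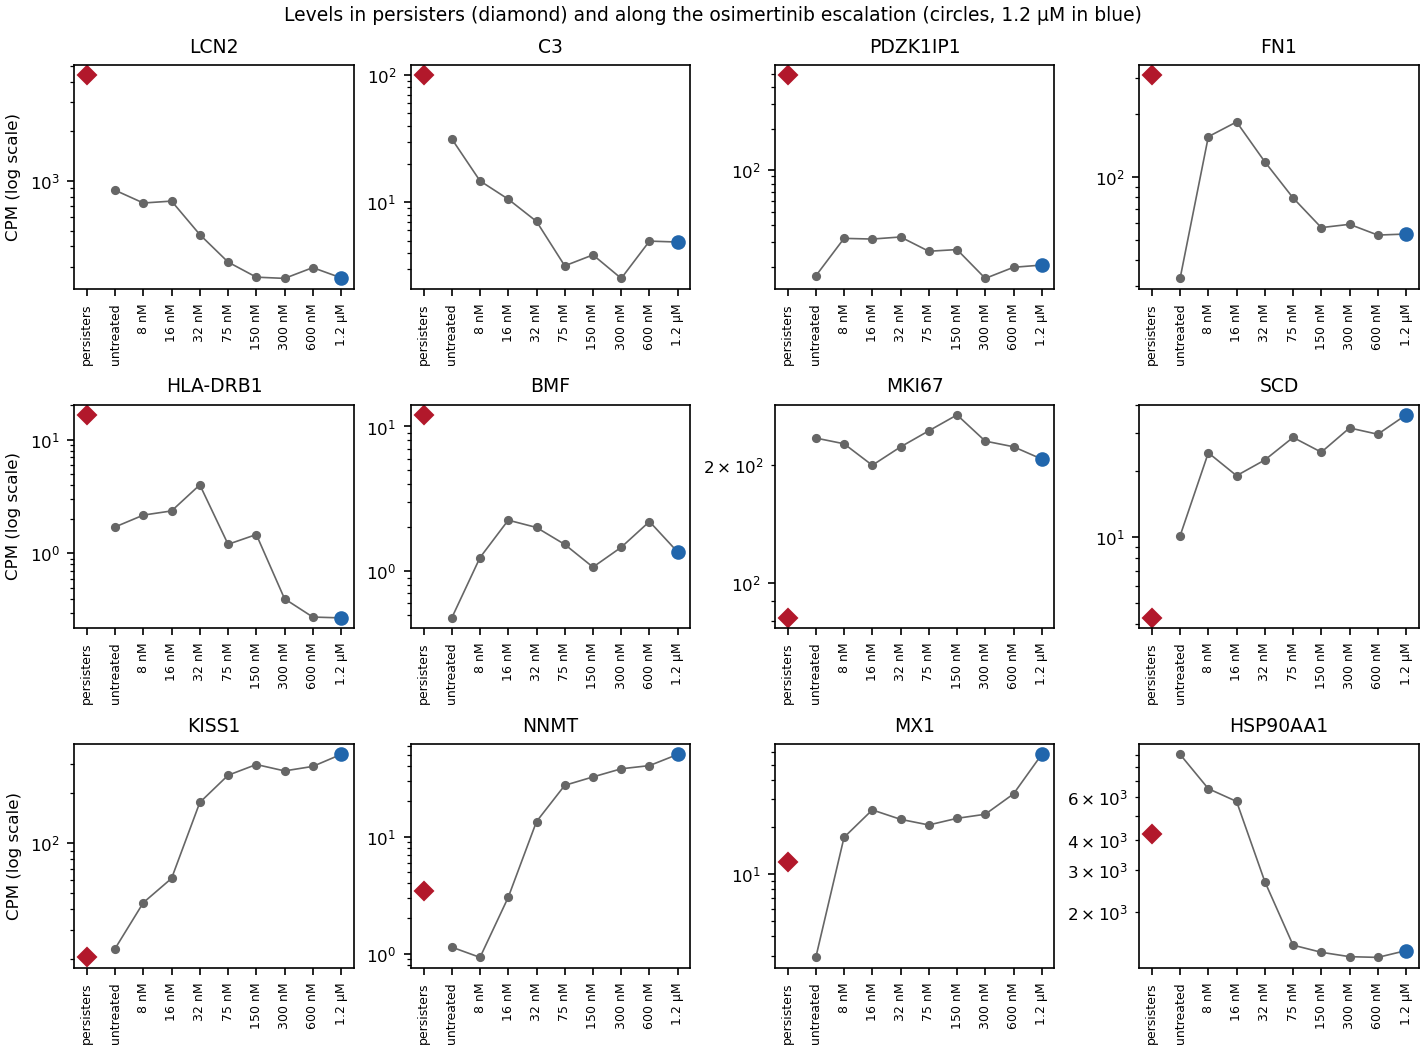
Level of 12 genes in CPM on log axes in persisters (diamond) and in untreated cells and cells adapted to 8 nM to 1.2 µM osimertinib (circles, 1.2 µM in blue). LCN2, C3, PDZK1IP1, FN1, HLA-DRB1 and BMF were highest in persisters, whereas MKI67, SCD and KISS1 were lowest in persisters and KISS1, NNMT and MX1 were highest at 1.2 µM. For KISS1 the counting interval in persisters included the level of untreated cells.

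NF-kB target and cytokine genes had the highest median of the gene lists. Of 18 measured members 10 were higher in persisters by 2-fold or more, against 4.03% of all measured genes, and 1 was lower, and their median log2 ratio was 1.26. Among the cells that the authors' own cell table lists, 10 of 20 were higher, where 3.9% of all measured genes were, and 1 was lower. TNFAIP3, the feedback inhibitor A20, had 41.4 CPM in persisters and 6.89 CPM in adapted cells, 6.0-fold (4.39 to 8.33). Its level in untreated cells was 38.8 CPM, so that persisters were close to untreated cells and every adapted population from 8 nM on was below 9 CPM. CXCL8, the neutrophil chemokine interleukin 8, followed the same order with 15.5 CPM in persisters, 1.22 CPM in adapted cells and 7.01 CPM in untreated cells. The others that were higher were TNFAIP2, which is induced by tumour necrosis factor, the feedback inhibitor NFKBIA, the antiapoptotic BIRC3, PTGS2, SOD2, LCN2 and the acute phase genes SAA1 and SAA2. SAA2 had 71.3 CPM in persisters and 10.7 CPM in adapted cells, but reads of SAA1 and SAA2, near-identical copies, may be split between them. The one lower member was the chemokine CCL5, with 2 UMIs in persisters and 101 in adapted cells, 33.5-fold lower (9.04 to 280), and in adapted cells its UMIs came from 1.77% of cells.

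Complement genes stood beside them. Of 11 measured genes of complement and innate defence 4 were higher in persisters, against 4.03% of all measured genes, and none lower, with a median of 0.32. C3, the central complement component, had 99.2 CPM in persisters and 4.87 CPM in adapted cells, 20.4-fold (14.5 to 29.5). Untreated cells had 31.5 CPM, and cells adapted to 8, 16 and 32 nM had 14.7, 10.6 and 7.07 CPM, which gives persisters the highest and the adapted cells above 32 nM the lowest levels. C1R and C1S, the proteases of the classical pathway, had 54.4 and 131 CPM in persisters and 16.9 and 37.0 CPM in adapted cells. LCN2 is on this list too. Of 14 genes on the list of S100 and other calcium-binding proteins 2 were higher, S100P with 221 CPM in persisters and 32.4 CPM in adapted cells and S100A9 with 57.7 and 10.4 CPM.

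The promoter of LCN2 is shown because the gene carried most UMIs of this group. RefSeq gives 250 bases before and 50 after the start (GRCh38.p14, chr9:128149203-128149502, plus strand), and the capitals mark the one match to the kappaB motif on either strand. The motif was chosen after the data were seen.
LCN2: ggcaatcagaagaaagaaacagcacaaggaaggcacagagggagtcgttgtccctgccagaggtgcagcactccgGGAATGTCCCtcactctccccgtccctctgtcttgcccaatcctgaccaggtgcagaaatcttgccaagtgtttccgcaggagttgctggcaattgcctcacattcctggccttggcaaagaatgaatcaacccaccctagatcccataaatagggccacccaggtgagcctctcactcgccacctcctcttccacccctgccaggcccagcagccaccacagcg
Such a match stood in the promoters of 4 of the 8 higher NF-kB genes with an entry in the table (10 genes in all), BIRC3, LCN2, NFKBIA and TNFAIP3, in 11.3% of the 35116 RefSeq promoters and for 13.3% of the 27305 genes that have one or more. Matches overlapping with each other were counted as matches, and a match describes the letters alone.

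Among genes of the interferon response and antigen presentation the directions were mixed. Of 35 measured interferon response genes 10 were lower in persisters, against 4.26% of all measured genes, and 2 were higher, and their median was -0.55. Among the authors' listed cells 15 of 38 were lower, where 2.75% of all measured genes were. MX1, an antiviral GTPase, had 12.02 CPM in persisters and 58.3 CPM in adapted cells, 4.85-fold lower (3.69 to 6.47). OAS2 and OASL, of the oligoadenylate synthetase family, had 2.24 and 3.67 CPM in persisters and 13.2 and 19.2 CPM in adapted cells. In both treated populations these genes were above untreated cells, where MX1 had 2.94 CPM, OAS2 0.474 CPM and OASL 1.99 CPM. The list's median log2 ratio to untreated cells was 1.51 in persisters and 1.72 in adapted cells. The direction depended on the adapted population: against cells adapted to 600 nM the median was 0.09, with 3 genes higher and 3 lower of 32, and against cells adapted to 300 nM it was 0.59, with 5 higher and 0 lower of 27. Over all measured genes 3.99% were higher and 4.41% lower against 600 nM cells, and 4.17% and 4.69% against 300 nM cells. MX1 had 24.1 CPM at 300 nM and 32.6 CPM at 600 nM. IRF1, a transcription factor of the interferon gamma response, had 60.9 CPM in persisters and 21.9 CPM in adapted cells, and GBP2, a guanylate-binding protein, 12.8 and 1.76 CPM, and both were thus higher in persisters.

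An ISRE, the interferon-stimulated response element searched as GAAA, any 2 bases and GAAA again on both strands with overlapping matches counted, stood in the promoters of 5 of the 6 lower interferon genes with an entry in the table (10 genes in all), BST2, HERC5, IFIT1, MX1 and OAS3, in 3.57% of all promoters and for 4.38% of all genes with a promoter entry. BST2, tetherin, a membrane protein that holds back budding virus, had 3.67 CPM in persisters and 13.2 CPM in adapted cells. Its promoter is shown as an example (RefSeq, GRCh38.p14, chr19:17405581-17405880, minus strand), with 2 overlapping ISRE matches in capitals.
BST2: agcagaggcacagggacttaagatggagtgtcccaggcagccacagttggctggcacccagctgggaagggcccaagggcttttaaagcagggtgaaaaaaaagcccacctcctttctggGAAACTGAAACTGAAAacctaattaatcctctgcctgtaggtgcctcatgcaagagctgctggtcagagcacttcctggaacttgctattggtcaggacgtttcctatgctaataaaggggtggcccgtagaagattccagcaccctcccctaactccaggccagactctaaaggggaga

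Of 19 measured antigen presentation genes 3 were 2-fold or more higher in persisters and none lower, and their median was 0.67, with 16 ratios above 0; 4.03% of all measured genes were higher. HLA-DRB1, a class II chain, had 81 UMIs in persisters and 2 in adapted cells, or 16.5 and 0.27 CPM, 61.1-fold (16.4 to 513). It reached at most 4.00 CPM elsewhere, at 32 nM. Of the class I genes HLA-B had 267 CPM in persisters, 131 CPM in adapted cells and 39.8 CPM in untreated cells, 2.05-fold (1.88 to 2.23) between the treated populations, and B2M, the shared light chain, 1629, 888 and 589 CPM. HLA-B was under 2-fold among the authors' listed cells. Reads of HLA genes can be split between near-identical copies.

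Several of the genes with the lowest ratios had more transcript at the higher steps of the escalation. KISS1, the precursor of kisspeptin, first described as a metastasis suppressor (chromosome 1, 204190341 to 204196486, minus strand), had 100 UMIs in persisters and 2546 in adapted cells. Its level was 20.4 CPM in persisters (16.6 to 24.8) and 344 CPM in adapted cells (331 to 358), 16.9-fold lower (13.8 to 20.8). From low to high dose it had 23.03 CPM in untreated cells and then 43.7, 61.3, 176 and 257 CPM under 8, 16, 32 and 75 nM. NNMT, which methylates nicotinamide, had 3.46 CPM in persisters and 50.5 CPM in adapted cells, 14.6-fold lower (8.99 to 25.3), and 1.14 CPM in untreated cells. BMP6, a ligand of the bone morphogenetic protein family, had 2.44 CPM in persisters, 38.5 CPM in adapted cells and 1.42 CPM in untreated cells. GFRA1, the coreceptor that brings GDNF to RET, had 1.63, 26.6 and 0.19 CPM, and TENM2, a teneurin adhesion molecule, 17.3, 165 and 5.88 CPM in the same order. For these genes persisters stood closer to untreated than to adapted cells. Of the 7 measured genes on the oncofetal and HMGA list KISS1 was the only one past 2-fold, where 4.26% of all measured genes were lower. MAP3K20, a stress-activated kinase, had 88.6 CPM in persisters and 381 CPM in adapted cells, with 149 CPM in untreated cells, which places persisters below both. Of the other genes among the 15 lowest, XAGE2, a member of a family of near-identical copies, RFLNB and the arginase ARG2 had log2 ratios of -2.62, -2.04 and -2.18. The mitotic kinesin KIF18B and the nuclear lamin LMNB1 each had -1.89, and the linker histones HIST1H1B and HIST1H1A had -2.53 and -2.12. Among the authors' listed cells, described with the proliferation genes, HIST1H1B had -0.30 and HIST1H1A -0.42. SCD and MX1 are given with their groups.

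Proliferation genes were lower in persisters. Of 45 measured S phase genes 34 were lower by 2-fold or more and none higher, where 4.26% of all measured genes were lower. Their median was -1.24, and all 45 ratios were below 0. Of 53 genes of G2 and mitosis 38 were lower and none higher, with a median of -1.20, again with every ratio below 0. TYMS, thymidylate synthase, had 41.0 CPM in persisters and 143 CPM in adapted cells, 3.49-fold lower (3.0 to 4.08), and 140 CPM in untreated cells. NDC80, of the outer kinetochore, had 28.1 CPM in persisters and 92.7 CPM in adapted cells, and TOP2A, the topoisomerase of mitotic chromosomes, 75.4 and 206 CPM. MKI67, the proliferation marker Ki-67, had 81.5 CPM in persisters and 207 CPM in adapted cells, 2.54-fold lower (2.28 to 2.85). It ranged from 200 to 269 CPM over the untreated and all adapted populations, so the persisters alone lay under 100 CPM. Against untreated cells the medians of the S phase list were -1.71 in persisters and -0.49 in adapted cells, and those of the G2 and mitosis list -1.14 and -0.07.

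These genes were low in most persisters rather than absent from all. After every cell was thinned to 3477 UMIs, which left 708 persisters and 997 adapted cells and left out 115 and 75 shallower ones, the 53 genes of G2 and mitosis summed to a median of 4 UMIs per persister and 15 per adapted cell. The 90th percentile was 27 UMIs in persisters and 46 in adapted cells. MKI67 had a UMI in 14.7% of thinned persisters and 38.0% of thinned adapted cells, and in 19.2% and 49.7% without thinning. The lowest thinned share in any other PC9 population was 36.3%. Among the authors' listed cells the difference was smaller, with 4 of 31 S phase genes lower and a median of -0.79, and 8 of 41 genes of G2 and mitosis lower and a median of -0.73, where 2.75% of all measured genes were lower. That table lists 81.8% of persisters and 36.8% of adapted cells, and how its cells were chosen is not given in the sources used here. Its deposited name carries the tag g1, which those sources do not explain. Among its cells MKI67 was at 13.8 CPM in persisters and 23.2 CPM in adapted cells, and TYMS, NDC80, TOP2A and MKI67 were all under 2-fold.

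CCND1, the D cyclin that EGFR signalling maintains, had 289 CPM in persisters and 574 CPM in adapted cells, 1.98-fold lower (1.87 to 2.11). Adapted cells were near the 520 CPM of untreated cells, and persisters were the lowest of the 10 populations. CCNE1, cyclin E1, was the 1 of 13 D cyclin, cyclin E and CDK inhibitor genes past 2-fold, at 3.87 CPM in persisters and 15.4 CPM in adapted cells. For all measured genes the shares past 2-fold were 4.03% higher and 4.26% lower. The CDK inhibitors CDKN1A and CDKN1B had 23.2 and 34.2 CPM in persisters and 26.5 and 40.5 CPM in adapted cells, with intervals of the fold that include 1. EZH2, the methyltransferase of Polycomb complex 2, had 33.2 CPM in persisters and 107 CPM in adapted cells, and HDAC9, a class IIa deacetylase, 215 and 75.7 CPM. In listed cells alone EZH2 had 19.6 CPM in persisters and 35.0 CPM in adapted cells, a log2 ratio of -0.80 against -1.66 in all cells.

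Histone genes divided. Of 19 measured genes of the list 6 were higher and 4 lower in persisters, against 4.03% and 4.26% of all measured genes. HIST1H4C, whose messages peak in S phase, had 230 CPM in persisters and 637 CPM in adapted cells. HIST1H2BD and HIST1H2AC, which are also made as polyadenylated messages outside S phase, had 126 and 171 CPM in persisters and 37.6 and 55.4 CPM in adapted cells. Reads of histone genes may be split between near-identical copies. In listed cells 4 of 19 were higher and 0 lower, where 3.9% and 2.75% of all measured genes were. HIST1H4C was at 88.3 CPM in persisters and 157 CPM in adapted cells there.

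Promoters of 2 lower mitotic genes are shown because the cell cycle homology region (CHR, TTTGAA on either strand, matches of which cannot overlap each other) is a known element of such promoters. They are credited to RefSeq (GRCh38.p14), NDC80 at chr18:2571307-2571606 on the plus strand and TOP2A at chr17:40417847-40418146 on the minus strand, with CHR letters in capitals.
NDC80: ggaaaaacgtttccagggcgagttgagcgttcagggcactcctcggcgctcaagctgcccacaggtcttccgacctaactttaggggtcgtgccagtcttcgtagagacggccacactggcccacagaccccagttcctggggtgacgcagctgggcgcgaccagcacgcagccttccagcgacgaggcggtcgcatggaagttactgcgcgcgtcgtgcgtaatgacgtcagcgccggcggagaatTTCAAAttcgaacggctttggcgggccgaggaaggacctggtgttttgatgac
TOP2A: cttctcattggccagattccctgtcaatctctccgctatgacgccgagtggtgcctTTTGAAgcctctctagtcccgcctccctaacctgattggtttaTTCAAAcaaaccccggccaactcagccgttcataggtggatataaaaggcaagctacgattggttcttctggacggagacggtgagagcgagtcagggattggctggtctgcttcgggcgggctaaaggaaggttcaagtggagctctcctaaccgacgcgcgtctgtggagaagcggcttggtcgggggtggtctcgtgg
CHR letters stood in 22 of the 30 lower genes of G2 and mitosis with an entry (38 genes in all), in 3 of the 28 lower S phase genes with an entry (34 in all) in 15.2% of all promoters and for 18.2% of all genes with an entry. CCAAT, on either strand, stood in 24 of those 30 and 22 of those 28, in 34.6% of all promoters and for 39.7% of all genes with an entry.

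**Figure D3:**
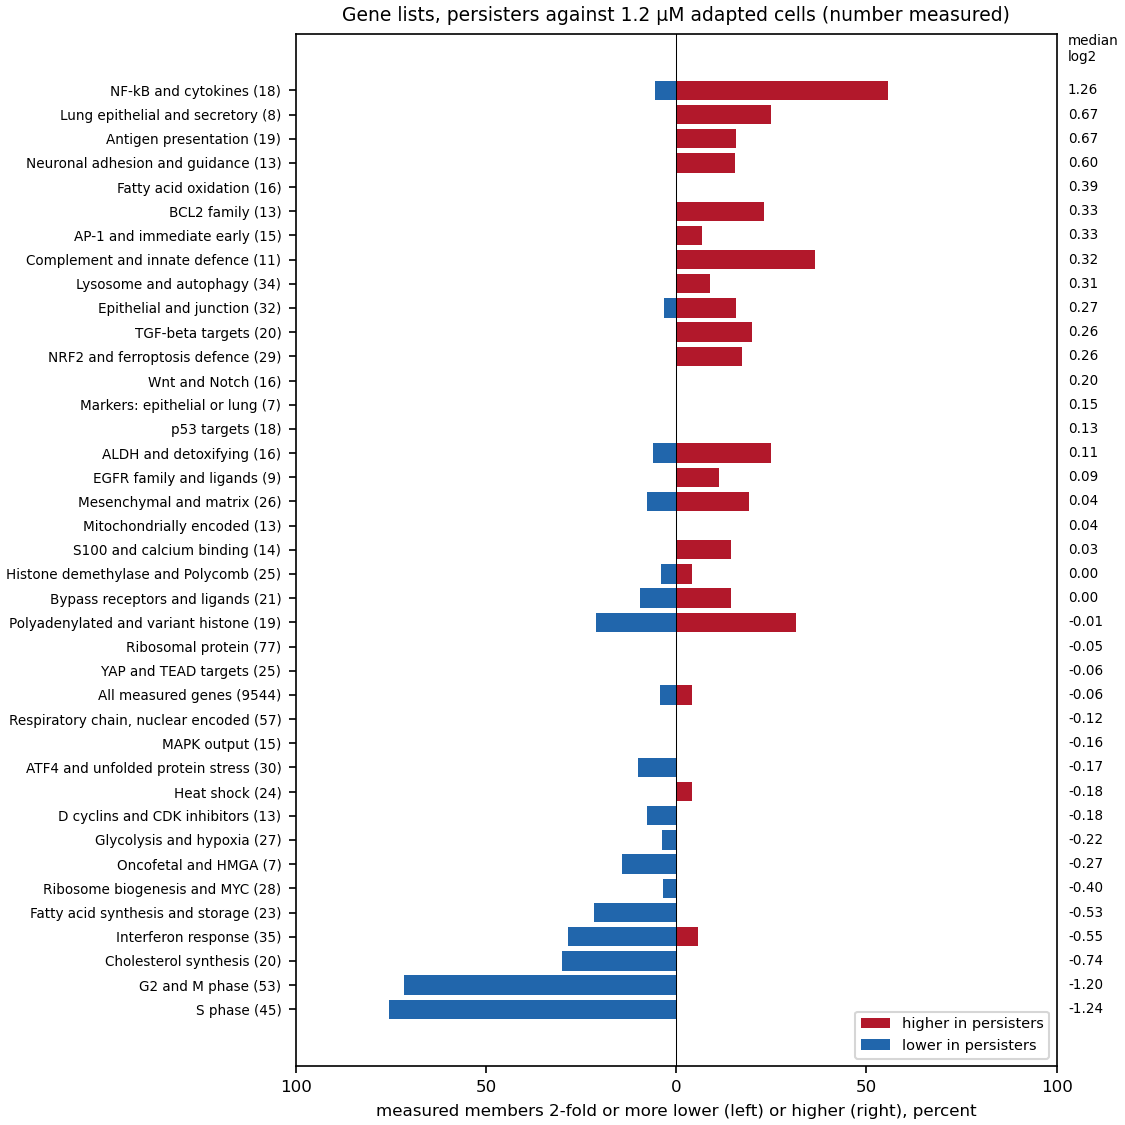
Share of the measured members of each gene list, in percent, that were 2-fold or more higher (right, red) or lower (left, blue) in persisters than in 1.2 µM adapted cells, with the number measured in brackets and the median log2 ratio at the right. NF-kB genes stand at one end with a median of 1.26 and S phase genes at the other with -1.24.

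Some lipid synthesis genes were lower, and most did not pass 2-fold. Of 20 measured genes of the cholesterol synthesis list 6 were lower and none higher, with a median of -0.74, and of 23 genes of fatty acid synthesis and storage 5 were lower and none higher, with a median of -0.53, against 4.26% lower among all measured genes. In listed cells 9 of 19 sterol genes and 5 of 24 fatty acid genes were lower, where 2.75% of all measured genes were. FABP5 was under 2-fold in those cells and between the authors' clusters, and LSS between the clusters and with a pseudocount of 5 CPM. SCD, which puts the first double bond into saturated fatty acids, had 4.28 CPM in persisters and 36.2 CPM in adapted cells, 8.47-fold lower (5.43 to 13.9), and 10.1 CPM in untreated cells. Persisters were thus the lowest and 1.2 µM adapted cells the highest of the 10 populations. ACAT2, which makes acetoacetyl-CoA, had 15.5 CPM in persisters and 59.9 CPM in adapted cells. Other sterol genes past 2-fold included DHCR7, SQLE, LSS and EBP, and the fatty acid genes were FADS1, FADS2, FABP5 and FASN, with log2 ratios of these 8 genes from -1.18 to -1.64. Relative to untreated cells the sterol list had a median of 0.07 in persisters and 0.98 in adapted cells, and the fatty acid list -0.44 and 0.17. Of 16 measured genes of fatty acid oxidation none passed 2-fold either way, with a median of 0.39 and CPT1A, the entry step into mitochondria, at 31.2 CPM in persisters and 21.5 CPM in adapted cells.

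With all cells used, EGFR itself and the measured MAPK output genes differed by less than 2-fold on the log2 scale used here. EGFR had 747 CPM in persisters and 539 CPM in adapted cells, 1.39-fold (1.33 to 1.45), and 981 CPM in untreated cells. ERBB2 had 19.4 CPM in persisters and 19.2 CPM in adapted cells, and ERBB3 61.7 and 48.1 CPM. TGFA, an EGFR ligand, was the 1 of 9 measured genes of the family past 2-fold, with 79.3 CPM in persisters and 32.7 CPM in adapted cells. None of 15 measured MAPK output genes passed 2-fold, with a median of -0.16. That count depended on the setting: 2 of 14 were lower in listed cells, where 2.75% of all measured genes were. CCND1 had a log2 ratio of -1.21 there. Means over cells, cells without those above 2 times the median UMIs, and 600 nM cells each gave 3 of 15 lower. All measured genes gave 5.09%, 4.84% and 4.41% lower in these settings. Against 300 nM cells 1 was higher and 2 were lower, where 4.17% and 4.69% of all measured genes were. DUSP6, the MAPK phosphatase, lay under the measuring threshold with 10 UMIs in persisters and 8 in adapted cells, or 2.04 and 1.08 CPM, against 17.8 CPM in untreated cells. ETV5, a transcription factor downstream of the pathway, had 8.15 CPM in persisters, 16.9 CPM in adapted cells and 51.2 CPM in untreated cells. Its ratio of CPM was 2.07-fold lower in persisters than in adapted cells (1.44 to 3.04), and -0.97 with the pseudocount. Both populations thus lay below untreated cells in these genes. FOS was the 1 of 15 AP-1 and immediate early genes past 2-fold, with 131 CPM in persisters and 48.9 CPM in adapted cells. In this comparison of all cells, 4.03% of all measured genes were higher and 4.26% lower.

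The list of receptors that can stand in for EGFR, which also holds ligands and binding proteins, differed both ways. INSR, IGFBP3 and IGFBP5, 3 of 21 measured members, were higher, and FGFR1 and the coreceptor GFRA1 were the 2 lower ones. Among all measured genes 4.03% were higher and 4.26% lower. INSR, the insulin receptor, had 12.02 CPM in persisters and 0.946 CPM in adapted cells, 12.7-fold (5.80 to 33.0). It had 10.2 CPM in untreated cells and at most 2.40 CPM from 75 nM on, so persisters lay near the untreated level. IGFBP3 and IGFBP5, which bind insulin-like growth factors, had 2477 and 215 CPM in persisters and 1167 and 74.6 CPM in adapted cells. IGFBP5 had 142 CPM at 300 nM, and neither gene was 2-fold apart against 300 or 600 nM cells. FGFR1 had 14.1 CPM in persisters and 40.7 CPM in adapted cells, 2.89-fold lower (2.22 to 3.82). AXL and MET, both linked to tolerance of EGFR inhibitors, had 140 and 523 CPM in persisters and 212 and 453 CPM in adapted cells, under 2-fold either way.

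Of 13 measured BCL2 family genes 3 were higher in persisters, against 4.03% of all measured genes, and none lower. All 3 are proapoptotic BH3-only genes. BMF had 12.02 CPM in persisters and 1.35 CPM in adapted cells, 8.89-fold (4.51 to 19.5), and at most 2.25 CPM in any other population. BIK had 20.4 CPM in persisters and 6.76 CPM in adapted cells, and HRK 10.8 and 2.84 CPM. BCL2L11, which encodes BIM, had 34.6 CPM in persisters and 21.4 CPM in adapted cells, 1.62-fold (1.30 to 2.03). All 4 lay at low counts, with 53 to 170 UMIs in persisters.

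Epithelial and mesenchymal genes both held members past 2-fold in each direction. Of 32 measured epithelial and junction genes 5 were higher and 1 lower in persisters. MUC1, an apical mucin, had 59.1 CPM in persisters and 17.4 CPM in adapted cells, and CLDN1, of tight junctions, 66.4 and 22.98 CPM. CEACAM6, an adhesion molecule, had 15.5 CPM in persisters, 2.57 CPM in adapted cells and 119 CPM in untreated cells. KRT81 was the lower one, at 2.44 CPM in persisters and 16.5 CPM in adapted cells, and reads of hair keratins may be split between copies. Of 26 measured mesenchymal and matrix genes 5 were higher and 2 lower. FN1, fibronectin, had 308 CPM in persisters and 53.3 CPM in adapted cells, 5.78-fold (5.17 to 6.48), and 184 CPM in cells adapted to 16 nM. TAGLN, a contractile marker that binds actin, had 64.8 CPM in persisters and 227 CPM in adapted cells, 3.503-fold lower (3.11 to 3.96). VIM, vimentin, was low in both, at 14.1 CPM in persisters and 2.57 CPM in adapted cells, against 53.4 CPM in untreated cells. Of 20 TGF-beta targets 4 were higher and none lower, INHBA, LTBP1, ITGB6 and TGFBR2, with INHBA, the activin A subunit, at 276 CPM in persisters and 96.5 CPM in adapted cells. ITGB6 and TGFBR2 were under 2-fold among the authors' listed cells, with log2 ratios of 0.78 and 0.73, and between the authors' clusters. All measured genes gave 4.03% higher and 4.26% lower.

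Of 29 measured NRF2 and ferroptosis defence genes 5 were higher and none lower, namely AKR1C1, AKR1C2, AKR1C3 and AKR1B10, aldo-keto reductases whose reads can be split between near-identical copies, and SLC40A1, the iron exporter ferroportin. Among the authors' listed cells 3 were higher and 1 lower. For this and the next 2 lists, 4.03% of all measured genes were higher and 4.26% lower. In listed cells these shares were 3.9% and 2.75%. SLC40A1 had 32.4 CPM in persisters and 12.8 CPM in adapted cells. FTH1, the ferritin heavy chain, had 13140 CPM in persisters and 6771 CPM in adapted cells, 1.94-fold (1.92 to 1.96). It lay between 5760 and 6771 CPM in the other 9 populations. SLC7A11, the cystine transporter, was lower in persisters but under 2-fold, with 299 CPM in persisters and 547 CPM in adapted cells. Of 16 measured aldehyde dehydrogenase and detoxifying genes 4 were higher and 1, NNMT, was lower. CYP1B1, a cytochrome P450, had 130 CPM in persisters and 28.8 CPM in adapted cells, and ALDH1A3, which makes retinoic acid, 762 and 374 CPM. Of 34 measured lysosome and autophagy genes 3 were higher, the cathepsins CTSS and CTSL and the cholesterol carrier NPC2, which had 617 CPM in persisters and 218 CPM in adapted cells. Set against 300 nM cells AKR1B10, AKR1C2, AKR1C3, ALDH3A1 and TGFBR2 were under 2-fold, and the same genes and ALDH1A3 were against 600 nM cells. In listed cells and between the authors' clusters AKR1C3, ALDH1A3 and SLC40A1 were under 2-fold, with ALDH1A3 at 0.85 and SLC40A1 at 0.88 on the log2 scale in listed cells.

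Other gene groups showed few or no members past 2-fold. None of 25 YAP and TEAD targets passed it, with medians of 1.14 in persisters and 0.95 in adapted cells relative to untreated cells. None of 18 p53 targets, 16 Wnt and Notch genes, 57 nuclear genes of the respiratory chain, 13 mitochondrially encoded genes or 77 ribosomal protein genes did either. Of 30 measured genes of ATF4 and unfolded protein stress 3 were lower, ASNS, MTHFD2 and PSAT1, where 4.26% of all measured genes were. These had log2 ratios of -0.80, -0.70 and -0.62 among listed cells, all under 2-fold, as they were between the authors' clusters, and ASNS and PSAT1 were also under it with a pseudocount of 5 CPM. Of 28 ribosome biogenesis and MYC-related genes 1, LYAR, was lower, and of 27 glycolysis and hypoxia genes 1, HK2, and both were under 2-fold with that pseudocount. Of 13 neuronal adhesion and guidance genes PCDH7 and NRCAM were higher, with 393 and 177 CPM in persisters and 134 and 67.0 CPM in adapted cells. Of 8 lung epithelial and secretory genes WFDC2 and SOX4 were higher, with 504 and 306 CPM in persisters and 188 and 131 CPM in adapted cells. SOX4 was under 2-fold among the authors' listed cells and between clusters. Only 15 of the 32 genes of that list were in the table, and NKX2-1, SFTPB, SFTPC and NAPSA were not. Among all measured genes 4.03% were higher.

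Among 24 heat shock genes 1 passed 2-fold, where 4.03% of all measured genes were higher and 4.26% lower. HSP90AA1, the inducible HSP90 chaperone (chromosome 14, 102080738 to 102139699, minus strand), had 4223 CPM in persisters and 1381 CPM in adapted cells, 3.06-fold (2.99 to 3.13), and 9061 CPM in untreated cells. Along the escalation it had 6521, 5771, 2676 and 1455 CPM under 8, 16, 32 and 75 nM. Its neighbours were higher in persisters as well. From PPP2R5C to ZFYVE21 (chromosome 14, 101761798 to 103733668) 15 of 19 measured genes were higher in persisters than in adapted cells by 2-fold or more and none lower, and a median of 1.40. Without HSP90AA1 they were 14 of 18 with a median of 1.27. Of the 10 measured genes on each side 2 of 20 were higher, CLMN and AHNAK2, and the median was -0.12. Relative to untreated cells the 19 genes had a median of -0.34 in persisters and -1.68 in adapted cells. The segment was delimited earlier in these data by its low level in 1.2 µM adapted cells, so these values describe it and test nothing.

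DYNC1H1, the dynein heavy chain, had 702 CPM in persisters and 166 CPM in adapted cells within the segment, and MARK3, a microtubule affinity-regulating kinase, 245 and 78.1 CPM. TNFAIP2, counted above among the NF-kB genes, lies there too, with 117 CPM in persisters, 12.03 CPM in adapted cells and 52.5 CPM in untreated cells. MOK and CINP differed least, with log2 ratios of 0.24 and 0.06. Per cell thinned to 3477 UMIs, the 18 genes without HSP90AA1 summed to a median of 9 UMIs in persisters (3 to 14 from the 10th to the 90th percentile) and 3 in 1.2 µM adapted cells (1 to 6). Untreated cells had 10 (5 to 15), and cells adapted to 16 and 32 nM had 9 (3 to 14) and 5 (1 to 11). DNA copy number was not measured here, and reads of overlapping genes in the segment may be split between them.

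**Figure D4:**
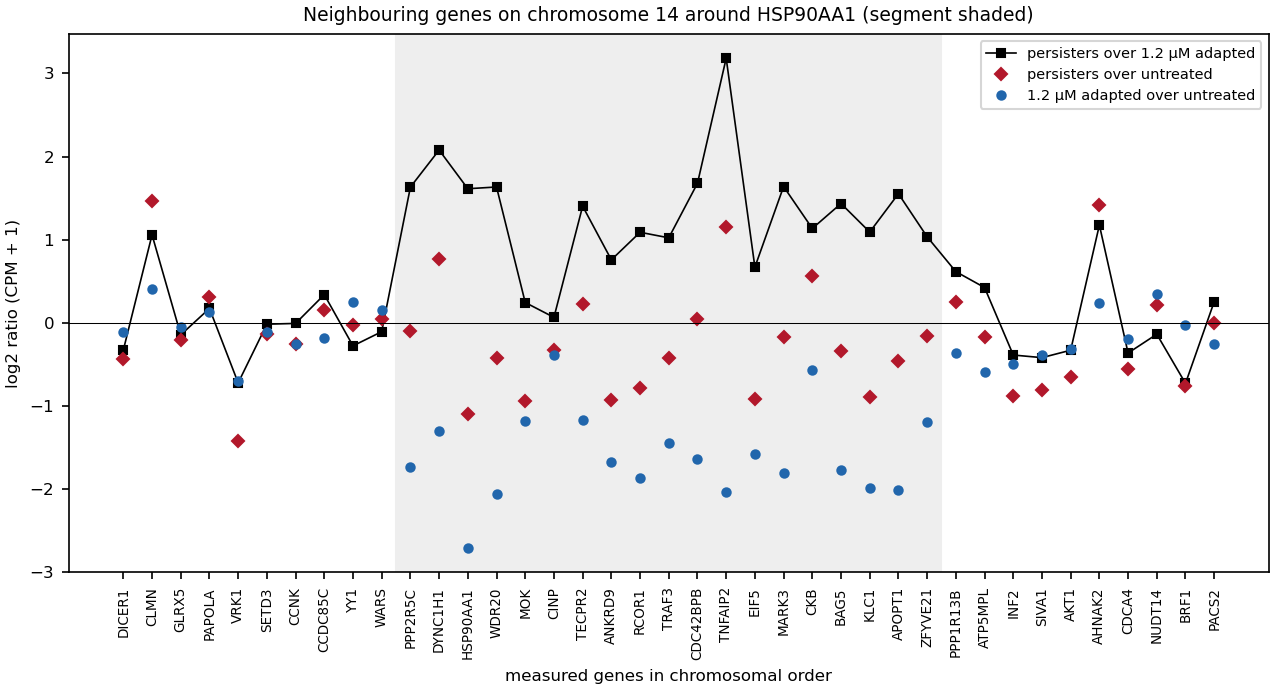
Log2 ratios of 39 neighbouring measured genes of chromosome 14 in chromosomal order, the segment from PPP2R5C to ZFYVE21 shaded, for persisters over 1.2 µM adapted cells (black squares), persisters over untreated cells (red diamonds) and 1.2 µM adapted over untreated cells (blue circles). Inside the shading the blue circles lie lowest, with a median of -1.68, and the black squares have a median of 1.40.

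LCN2, PDZK1IP1 and KISS1 were each found in most cells of the population that held more of them. LCN2 had a UMI in 95.3% of thinned persisters and 51.2% of thinned adapted cells (97.8% and 71.9% without thinning), where the lowest share in another population was 47.6%. Its level per thinned persister ran widely, from 1 UMI at the 10th percentile through a median of 9 to 45.3 at the 90th, while adapted cells had a median of 1 and a 90th percentile of 2. The 10% of cells with most LCN2 held 41.3% of its UMIs in persisters and 43.3% in adapted cells. PDZK1IP1 had a UMI in 60.5% of thinned persisters and 6.02% of thinned adapted cells (66.1% and 10.8% without thinning), with a lowest share elsewhere of 4.37%. KISS1 had a UMI in 5.51% of thinned persisters and 60.1% of thinned adapted cells (9.11% and 74.7% without thinning). The lowest share of KISS1 in another population was 6.10%, inside the 95% counting interval of the persister share (3.95% to 7.45%). All cells were loaded together, and the part of free RNA in the shares of these genes was not tested. HSP90AA1 had a median of 14 UMIs per thinned persister and 4 per thinned adapted cell.

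**Figure D5:**
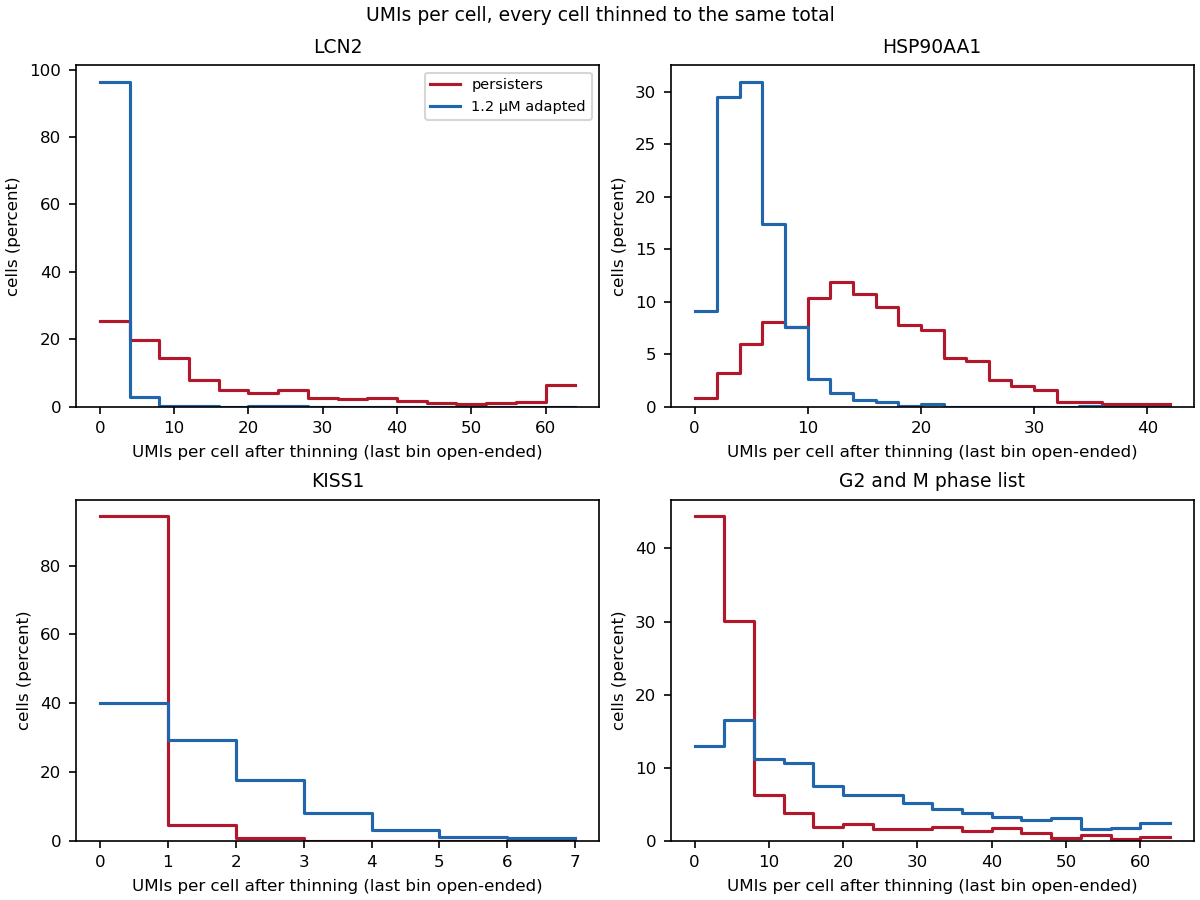
Percent of cells by UMIs per cell for LCN2, HSP90AA1, KISS1 and the summed G2 and mitosis list in 708 persisters (red) and 997 adapted cells (blue), every cell thinned to 3477 UMIs and the last bin open-ended. The LCN2 and HSP90AA1 curves of persisters lie to the right of adapted cells, with medians of 9 against 1 and 14 against 4, and those of KISS1 and the cell cycle list lie to the left.

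Over all measured genes, persisters were not closest to the population adapted to their own dose. The root mean square log2 difference of persisters was 0.88 from untreated cells, 0.58, 0.52, 0.55 and 0.59 from cells adapted to 8, 16, 32 and 75 nM, and 0.64, 0.61, 0.60 and 0.60 from cells adapted to 150, 300 and 600 nM and 1.2 µM. Cells adapted to 16 nM were therefore the nearest population, with 263 genes higher and 364 lower in persisters. The 1.2 µM adapted cells differed by 0.16 from 600 nM cells, with 1 gene higher and 0 lower, and by 0.70 from untreated cells. In the clusters of the authors' table, which describe these same cells and test nothing, 89.0% of the 673 listed persisters were in cluster 1 and 57.2% of the 395 listed adapted cells in cluster 4 and 38.7% in cluster 3. Cluster 1 held 1.77% of the listed adapted cells, and clusters 3 and 4 held 2.82% and 1.49% of the listed persisters. Cluster 1 persisters against cluster 3 and 4 adapted cells gave 446 genes higher and 329 lower, of which 311 and 185 were also past 2-fold in the comparison of all cells.

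Of 9050 overlapping windows of 21 measured neighbours 97.6% had a median log2 ratio between -0.5 and 0.5. Windows outside that range included AREL1 to POMT2 on chromosome 14 at 0.76 and ITGB8 to HNRNPA2B1 on chromosome 7 at -0.66. On chromosome 21 the median over 90 measured genes was -0.48, with 14 lower and 1 higher, and MX1 and MX2 lie there. On chromosome 3 the median over 552 genes was 0.27, with 47 higher and 10 lower. Over all measured genes 4.03% were higher and 4.26% lower.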

How the data were processed

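Single-cell 3′ expression of PC9 cells was taken from the deposited table of raw UMI counts per gene and cell, which per the labels carries the population in each cell name. Per the submitters' processing notes the reads were processed with Cell Ranger 7.0.0 against GRCh38. The authors' deposited cell table gives, per the file headers, the total count, the number of genes, the percent of mitochondrial UMIs and the cluster of 4208 PC9 cells, and all 4208 matched the count table in total UMIs. Any filter on genes or cells before deposition is not given in the sources used here, and each listed gene had a UMI in at least 6 cells.

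All cells were used and no doublet caller was run; cells above 2 times the median UMIs of their population (3.28% of persisters and 0.28% of adapted cells) were left out in an alternative. CPM came from each population's UMI sums over its total, and ratios used a pseudocount of 1 CPM. A count of 0 allows up to 0.611 CPM in persisters and 0.405 CPM in adapted cells (3 counts of the total). Levels carry 95% exact Poisson intervals and folds exact binomial ones, for counting error only. The 43 gene lists were described by counts and medians. Per-cell values used cells thinned to 3477 UMIs, the 10th percentile. The members, lists and naming rule were chosen with earlier results of these data known. Named were the 15 highest and 15 lowest ratios where either population reached 25 CPM (clone names, antisense and LINC genes aside), up to 6 members of each list with the largest absolute ratios, and 16 fixed genes. Other genes, including further list members, IRF1, CYP2J2, BRCA2 and chromosome 14 neighbours, were named after their values were seen. Positions came from GENCODE release 29 (GRCh38) by symbol, which placed 99.6% of symbols. In simulated counts for this comparison 50 of 50 genes set 3-fold apart were called in each direction, 0 of 50 set 1.5-fold apart in each direction, and 0 of 9113 unchanged genes. The simulated counts held counting error alone, without variation between cells or cultures. They check the calculation and give no rate of false calls between cultures. Calculations used pandas 2.3.3, scipy 1.17.1 and numpy 2.4.6 under Python 3.11.15, and the TMM factors of edgeR 4.0.16 under R 4.3.3. The A375 table was read only to count its cells.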

Additional observations from a re-analysis of the deposited data

How the results depend on the processing

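With 1 tagged sample per population, condition and culture cannot be told apart, and the depth, 4908228 UMIs in persisters, limits genes near 10 CPM. No paired analysis was possible because each PC9 population was 1 tagged sample and no replicate numbers are shared. Against 385 genes higher and 407 lower, a pseudocount of 5 CPM left 262 lower, no CPM minimum gave 651 higher, a minimum of 50 CPM left 171 higher and 154 lower, a threshold of 3-fold left 124 higher and 70 lower, and the authors' listed cells gave 366 higher (278 of them among the 385) and 258 lower (155 among the 407). A higher minimum, a larger pseudocount and a larger threshold lower such counts by construction, and the cause of the difference in listed cells was not tested. TMM scaling gave 405 higher and 385 lower, totals without mitochondrial and ribosomal protein genes 434 and 438, means over cells 449 and 489, thinned cells 425 and 513, cells under 10% mitochondrial UMIs 396 and 421, and cells without those above 2 times the median 405 and 463. The remaining alternatives (chosen after seeing the data) put 600 nM cells in place of 1.2 µM cells (382 and 422, of which 317 and 342 were shared), 300 nM cells (398 and 448), and cluster 1 persisters against cluster 3 and 4 adapted cells (446 and 329). Of 125 named genes past 2-fold none changed sign under any of these; 95 stayed past 2-fold in listed cells, 102 between clusters, 112 against 300 nM and 115 against 600 nM cells.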
